A study of Mus musculus with 4 samples.

Results

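Semaphorins, plexins and neuropilins are the ligands and receptors of a guidance system that steers growing axons and migrating neurons. The 31 genes described here are those whose symbols name a semaphorin of class 3 to 7 (20 genes), a plexin (9 genes) or a neuropilin (2 genes), out of 34968 gene symbols that all libraries share. They were measured by bulk RNA-seq of tdTomato+ neurons sorted on day 12 from embryoid bodies of 2 mouse embryonic stem (ES) cell lines, with 2 libraries from each line. Both lines descend from the same Dlx6-Cre; Ai9 parental line on the C57/BL6 strain, in which Cre from the Dlx6a transgene turns on tdTomato in forebrain inhibitory lineages, and both were selected as clones. Both carry Nkx2-1, the factor that gives medial ganglionic eminence (MGE) identity, under a Nestin promoter, and Dlx2, which promotes inhibitory fate, under a tetracycline-responsive promoter. The N/D line has these factors only and the N/D/S line carries St18 beside Dlx2, and the small molecules XAV-939 and SAG were in the medium of both. How many clones the libraries came from is not stated. The comparison asks whether neurons of the line given the St18 transgene differ in these genes from neurons of the line not given it.

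A class 3 semaphorin is secreted and usually binds a neuropilin, which has almost no signalling domain of its own and hands the signal to a plexin of the A group. Class 4, 5 and 6 semaphorins are mostly membrane proteins that bind plexins directly, class 6 those of the A group and several of class 4 those of the B group, and Sema7a is held in the membrane by a lipid anchor. Plexins carry an intracellular domain that inactivates small GTPases, so that the cytoskeleton of the growth cone collapses. In the embryonic forebrain, migrating cortical interneurons that carry neuropilins are known to avoid the striatum, which secretes Sema3a and Sema3f, and Nkx2-1 is known to lower Nrp2 in MGE neurons that stay in the basal ganglia.

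Levels are TPM, a transcript's share of the library after division by transcript length, and can be compared between genes. The files hold no read counts, so the depth of the libraries is unknown. The library labelled N/D replicate 1 stood apart, with 13426 genes above 0 against 17118 to 20750 in the other libraries. Of 6139 genes that reached 10 TPM in all of the remaining libraries, 9.99% were at 0 there, against at most 0.0434% when the same was counted for another library, and 3389 of the 12975 genes tested (26.1%) were at 0 in it. St18 did not separate the lines, with 28.5 and 26.6 TPM in N/D beside 44.4 and 15.9 TPM in N/D/S, so the direction of every difference between the lines rests on the labels. Nkx2-1 had 16.5 and 48.6 TPM in N/D and 39.6 and 18.3 TPM in N/D/S, and Dlx2 71.1 and 188 against 259 and 148 TPM. Of the markers of the labelled cell type, all 5 neuronal and all 6 GABAergic genes were at 1 TPM or more in every library. The summed level of 7 astrocyte and oligodendrocyte genes was 0 and 201 TPM in N/D and 17.4 and 67.3 TPM in N/D/S, and that of 7 progenitor genes was 245 and 1066 TPM in N/D and 352 and 627 TPM in N/D/S. Fibroblast genes (4 genes) summed to at most 33.0 TPM, pluripotency genes (3 genes) to at most 25.0 TPM, endothelial genes (4 genes) to at most 38.8 TPM, all of it from Pecam1 in N/D replicate 1, glutamatergic genes (4 genes) to at most 19.0 TPM and microglial genes (4 genes) to at most 1.43 TPM. In bulk RNA, fewer cells of a type and less RNA per cell cannot be told apart.

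Of the 31 genes, 25 passed the filter of at least 1 TPM in at least 2 libraries and were tested. The 6 that did not pass were Sema3b, Sema3d, Sema3g, Sema7a, Plxnb3 and Plxnd1. Their highest level in any library was 3.0 TPM, for Sema7a in N/D/S replicate 1, and Sema3g stayed at or below 0.00512 TPM. At the other end, 7 genes had at least 10 TPM in every library, namely Sema4a, Sema4c, Sema6a, Sema6c, Plxna1, Plxnb2 and Nrp2. Levels of single genes spread widely between libraries of the same line, as the plot of levels by library shows.

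**Figure D1:**
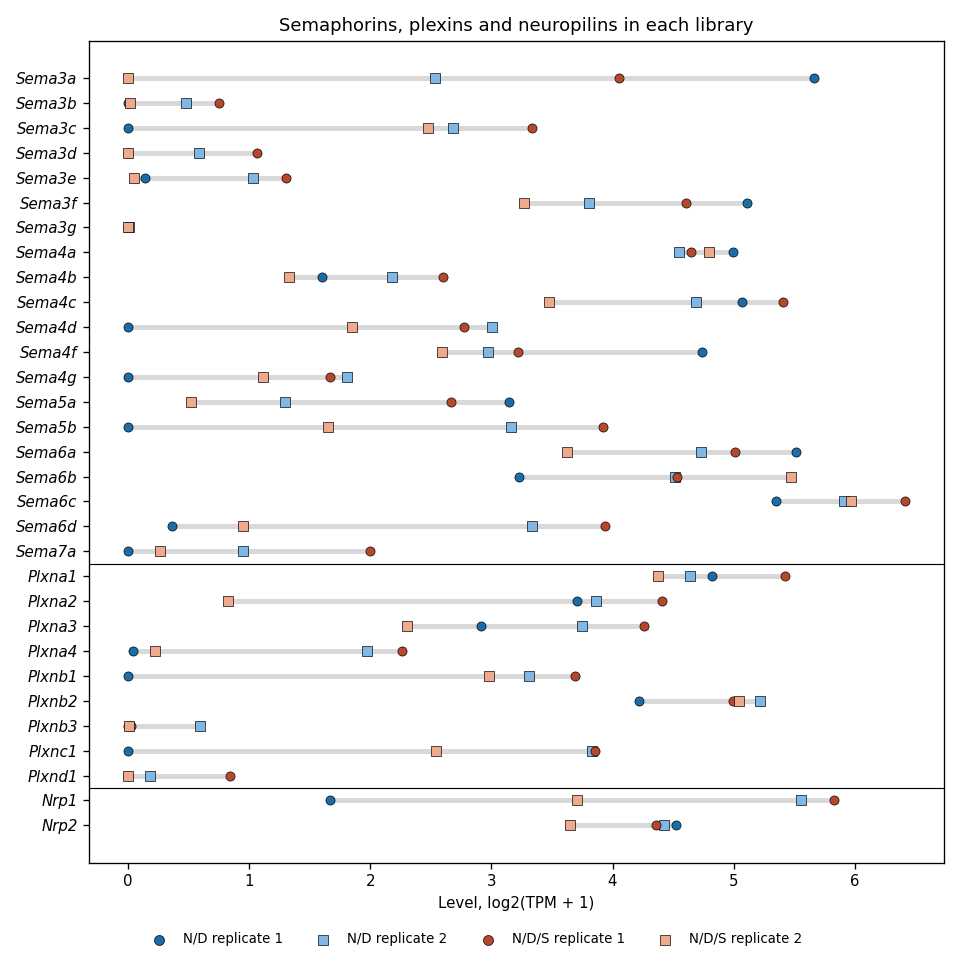
Level of each of the 31 genes on the log2(TPM + 1) scale, with semaphorins at the top, plexins in the middle and neuropilins at the bottom. Each point is 1 library, with circles for replicate 1 and squares for replicate 2, and the grey line spans the lowest to the highest library. Sema6c and Sema4a keep a narrow range at a high level, while Sema3a runs from 0 in N/D/S replicate 2 to 49.6 TPM in N/D replicate 1.

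Promoters are shown for the 3 genes whose lines did not overlap and for Sema3a, which had the lowest fold change. Sequences are from RefSeq on GRCm38.p6, upstream of the first listed start, 5′ to 3′ on the gene's strand, and end before the first exon base of GENCODE M21. Capitals mark AAGTT or its reverse complement AACTT, the core letters that zinc fingers of the St18 family are known to bind. Nrp2, at chr1:62703067-62703284 on the plus strand, holds 1 such core in 218 bases.
Nrp2: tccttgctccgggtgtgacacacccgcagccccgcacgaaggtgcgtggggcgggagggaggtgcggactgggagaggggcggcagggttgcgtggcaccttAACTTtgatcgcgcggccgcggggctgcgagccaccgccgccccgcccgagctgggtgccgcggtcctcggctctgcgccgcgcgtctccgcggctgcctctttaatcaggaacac
Sema6b, at chr17:56140344-56140593 on the minus strand, holds 0 in 250 bases.
Sema6b: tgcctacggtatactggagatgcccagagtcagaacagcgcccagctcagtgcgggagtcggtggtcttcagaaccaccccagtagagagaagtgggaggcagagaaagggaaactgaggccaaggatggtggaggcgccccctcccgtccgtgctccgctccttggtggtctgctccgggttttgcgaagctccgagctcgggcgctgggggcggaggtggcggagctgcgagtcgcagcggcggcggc
Sema6c, at chr3:95160170-95160419 on the plus strand, holds 0 in 250 bases, while a second listed window of Sema6c, at chr3:95164089-95164338, holds 1.
Sema6c: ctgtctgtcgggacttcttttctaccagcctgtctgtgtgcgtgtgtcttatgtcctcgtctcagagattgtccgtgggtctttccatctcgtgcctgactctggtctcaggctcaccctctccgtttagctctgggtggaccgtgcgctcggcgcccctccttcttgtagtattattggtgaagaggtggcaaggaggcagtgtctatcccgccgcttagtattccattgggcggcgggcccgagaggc
Sema3a, at chr5:13396534-13396783 on the plus strand, holds 3 in 250 bases. This start lies within the gene as GENCODE draws it, outside its exons.
Sema3a: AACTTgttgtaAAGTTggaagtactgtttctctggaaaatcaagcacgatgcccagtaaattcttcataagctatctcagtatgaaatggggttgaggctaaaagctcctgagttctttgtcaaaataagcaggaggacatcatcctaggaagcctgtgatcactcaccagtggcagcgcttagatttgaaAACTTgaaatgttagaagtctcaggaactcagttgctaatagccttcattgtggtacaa

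The core was present in 10 of the 37 promoter windows of the family (27.0%) and in 35.3% of all 32851 windows of the same length, 250 bases, with both strands searched. The longer site AAAGTTT or AAACTTT, which contains the core, was in 1 of the 37 windows (2.70%), that of Sema3d, against 4.20% of all windows. The windows of the family were richer in G and C, with a median of 64.0% against 52.4% over all windows. In the windows shown, G and C made up 72.5% for Nrp2, 66.0% for Sema6b, 57.6% for Sema6c and 40.8% for Sema3a. A window was found for 26 of the 31 genes, and Plxna1, Plxna4, Sema3b, Sema3f and Sema6a had none.

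The neuropilins behaved differently from each other. Nrp2, the co-receptor for Sema3f, had 22.0 and 20.5 TPM in N/D against 19.5 and 11.5 TPM in N/D/S. Both N/D/S libraries thus lay below both N/D libraries, although N/D/S replicate 1 was within 1 TPM of N/D replicate 2. Nrp1, the co-receptor for Sema3a, had 2.17 and 46.2 TPM in N/D and 55.9 and 12.1 TPM in N/D/S, so the lines overlapped. Nrp1 was the higher neuropilin in 3 libraries, at 2.26 times Nrp2 in N/D replicate 2, 2.87 times in N/D/S replicate 1 and 1.05 times in N/D/S replicate 2. In N/D replicate 1 it stood at 0.0985 times Nrp2, which kept its level there.

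Among the plexins, Plxna1 and Plxnb2 were the leading pair in every library. Plxna1, which pairs with neuropilins and also binds class 6 semaphorins, had 27.3 and 24.0 TPM in N/D and 42.0 and 19.8 TPM in N/D/S. Plxnb2, a receptor for Sema4c, had 17.6 and 36.2 TPM in N/D and 30.9 and 31.9 TPM in N/D/S. The order of these genes changed from library to library, and neither separated the lines.

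Other receptors of the A group were lower. Plxna2, a receptor for Sema6a, had 12.0 and 13.6 TPM in N/D but 20.2 and 0.773 TPM in N/D/S, so its lowest and its highest value came from the same line. Plxna3, which works with Nrp2 in the response to Sema3f, had 6.54 and 12.5 TPM in N/D and 18.1 and 3.92 TPM in N/D/S. Plxna4, which works with Nrp1 in the response to Sema3a, ran from 0.0283 TPM in N/D replicate 1 to 3.79 TPM in N/D/S replicate 1. Plxna2, Plxna3 and Plxna4 were each highest in N/D/S replicate 1 and overlapped between the lines.

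The plexins of the remaining groups were mostly missing from 1 library. Plxnb1, the receptor for Sema4d, was listed at 0 in N/D replicate 1 and had 8.93 TPM in N/D replicate 2 against 11.9 and 6.87 TPM in N/D/S. Its exons overlap those of the antisense gene Gm7628, and whether the library kit kept strand is not stated. Plxnc1, the receptor for Sema7a, was also listed at 0 in N/D replicate 1 and had 13.2 TPM in N/D replicate 2, 13.5 TPM in N/D/S replicate 1 and 4.81 TPM in N/D/S replicate 2. Plxnd1, the direct receptor for Sema3e, reached 0.786 TPM at most and Plxnb3 0.511 TPM, so both were near 0 wherever they were listed above it. Of all plexin TPM, the A group held 72.3% and 47.3% in N/D and 59.6% and 36.1% in N/D/S, and the B group 27.7% and 40.8% against 30.3% and 56.9%.

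Of the secreted class 3 semaphorins, Sema3a had the widest spread over the libraries of all 25 tested genes. Sema3a, the classic repellent of Nrp1-bearing axons, had 49.6 and 4.78 TPM in N/D and 15.6 TPM and a listing of 0 in N/D/S. It ranked first among the 31 genes in N/D replicate 1, while in each line its replicate 1 library was the higher. Sema3f, the ligand of Nrp2, had 33.5 and 13.0 TPM in N/D and 23.3 and 8.63 TPM in N/D/S, again with the replicate 1 library higher in each line. Sema3c, which can attract some axons, was listed at 0 in N/D replicate 1 and had 5.41 TPM in N/D replicate 2 against 9.10 and 4.56 TPM in N/D/S. Sema3e stayed at or below 1.46 TPM, as did its receptor Plxnd1, and Sema3b and Sema3d were at or below 1.09 TPM.

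The class 4 semaphorins held Sema4a, the steadiest of the 25 tested genes with a standard deviation of 0.19 on the log2(TPM + 1) scale over all libraries. It had 30.8 and 22.4 TPM in N/D and 24.1 and 26.7 TPM in N/D/S. Sema4c, a ligand of Plxnb2, had 32.6 and 24.9 TPM in N/D and 41.5 and 10.1 TPM in N/D/S, so the N/D/S libraries were the highest and the lowest. Its exons overlap those of the opposite-strand gene D430040D24Rik, and exons of Plxna1, Plxna4 and Plxnc1 also overlap those of other annotated genes. Sema4f had 25.7 TPM in N/D replicate 1 and between 5.02 and 8.29 TPM elsewhere. Sema4b ran from 1.51 to 5.07 TPM. Sema4d, the ligand of Plxnb1, and Sema4g were listed at 0 in N/D replicate 1 and had at most 7.04 and 2.50 TPM in the other libraries.

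Sema5a and Sema5b, transmembrane semaphorins with thrombospondin repeats, differed in N/D replicate 1, where Sema5a had its highest value and Sema5b its lowest. Sema5a had 7.86 and 1.45 TPM in N/D and 5.33 and 0.435 TPM in N/D/S. Sema5b was listed at 0 in N/D replicate 1, with 7.96 TPM in N/D replicate 2 and 14.1 and 2.15 TPM in N/D/S. Neither gene separated the lines.

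Class 6 was the leading semaphorin class in every library, with 33.9% and 53.0% of all semaphorin TPM in N/D and 48.6% and 65.0% in N/D/S. In N/D replicate 1 it led class 4, at 33.1%, by less than 1 percentage point. Class 4 held 26.2% to 33.1% and class 3 7.34% to 30.2% over the 4 libraries, with class 3 lowest in N/D/S replicate 2. Sema6c, a transmembrane semaphorin, was the highest of all 31 genes in every library but N/D replicate 1. It had 39.9 and 59.0 TPM in N/D and 84.3 and 61.5 TPM in N/D/S, and the lowest N/D/S value was 2.46 TPM above the highest N/D value. Sema6b, like the others of class 6 a membrane ligand, had 8.39 and 21.9 TPM in N/D and 22.1 and 43.5 TPM in N/D/S. For Sema6b the gap was 0.273 TPM, so N/D replicate 2 and N/D/S replicate 1 were nearly equal. Sema6a, a ligand of Plxna2 and Plxna4, had 44.7 and 25.6 TPM in N/D and 31.2 and 11.3 TPM in N/D/S, and Sema6d ran from 0.288 TPM in N/D replicate 1 to 14.3 TPM in N/D/S replicate 1. The plot of summed levels by class shows the share that class 6 took.

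**Figure D2:**
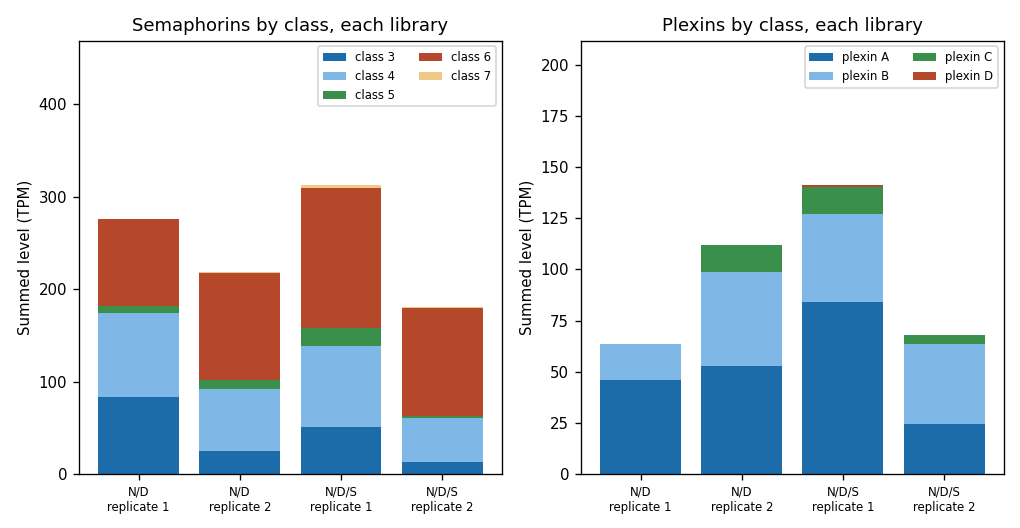
Summed level in TPM of the semaphorins (left) and the plexins (right), stacked by class, with 1 bar for each library. Class 6 is the largest semaphorin block in all 4 libraries, and the plexin A block is the largest in every library but N/D/S replicate 2.

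No gene of the family passed the test between the lines. Of the 25 tested genes, 0 moved up in N/D/S and 0 moved down when limma's p, adjusted over all genes by the Benjamini-Hochberg method, was held to 0.05, and the same was true of 0% of the 12975 genes tested in each direction. At an unadjusted p under 0.05, limma gave 0 genes of the family and, of all genes, 3 higher and 5 lower. With a variance trend, limma gave 202 higher and 22 lower at that unadjusted p and 5 higher and 1 lower at the adjusted threshold, none of them in the family. The family's lowest unadjusted p in limma was 0.238. Log2 fold changes, N/D/S relative to N/D, were above 0 for 15 of the 25 genes and below 0 for 10, with a median of 0.17 beside 0.26 for all genes tested. Measured against that median of all genes, 11 lay above it and 14 below. The median residual standard deviation between libraries of a line was 0.98 for the family and 1.03 for all genes, on the log2(TPM + 1) scale. With 2 libraries in each line, a two-sided exact permutation test cannot give a p below 0.333. The labels do not say whether libraries of a line came from separate differentiations, so p-values measure only the spread between these libraries.

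The fold changes depended on single libraries. The median log2 fold change of the 25 genes was −0.54 without N/D/S replicate 1, beside 0.02 for all genes tested. It was 0.71 without N/D/S replicate 2, beside 0.57, and 0.53 without N/D replicate 2, beside 0.88. Without N/D replicate 1, the median log2 fold change of the 25 genes was −0.36, beside −0.29 for all genes tested, and 17 genes lay below 0. In that fit the line with a single library is assumed to vary like the other, and 0 genes of the family passed the adjusted threshold. Without N/D replicate 2, 4 genes of the family passed it in limma, and they were Nrp1 with a log2 fold change of 3.10 (adjusted p = 0.0404), Plxnb1 with 3.33 (adjusted p = 0.0257) and Plxnc1 with 3.20 (adjusted p = 0.0337), all towards N/D/S, and Sema3a with −3.63 (adjusted p = 0.0136). The 3 that passed upwards are 12.0% of the family, beside 17.1% of all genes tested, and the 1 downwards is 4.0%, beside 1.23%, so that in either direction 16.0% of the family passed beside 18.3% of all genes. That fit compares N/D/S with N/D replicate 1 alone, where Plxnb1 and Plxnc1 were listed at 0 and Nrp1 had 2.17 TPM. All 4 genes had the same standard error in it, 1.15. Passing there was thus a cut on fold change that holds no spread of the single gene. The plot of fold changes gives both sets of values.

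**Figure D3:**
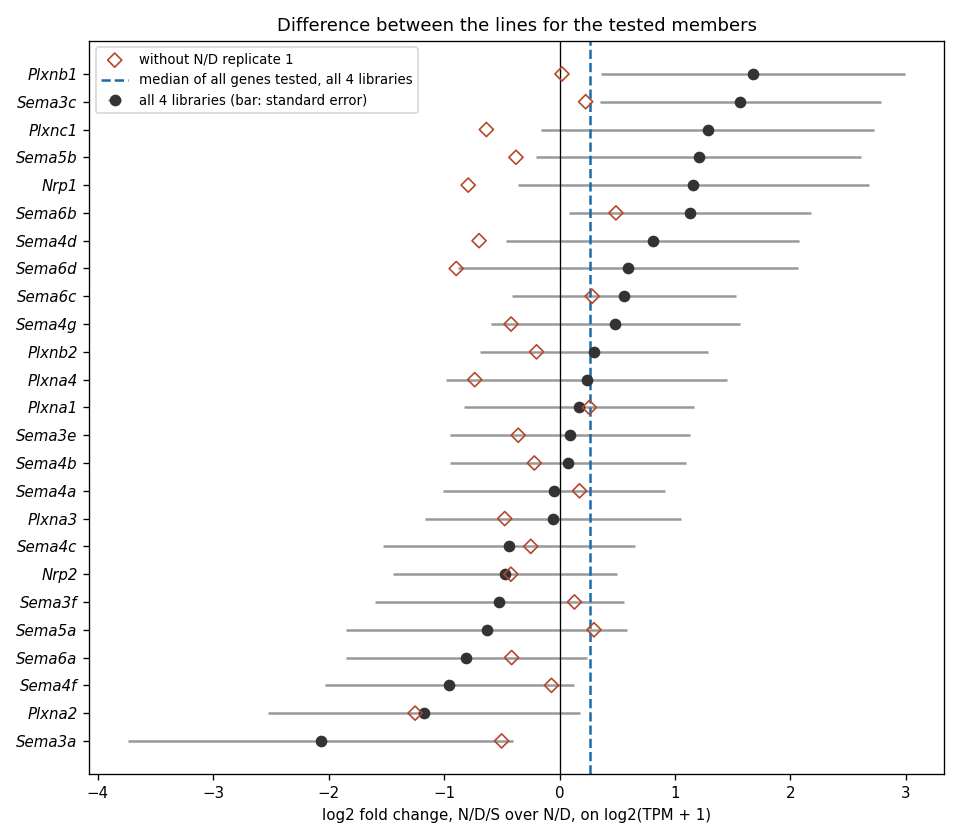
Log2 fold change, N/D/S relative to N/D, on the log2(TPM + 1) scale for the 25 tested genes, ordered by size. Filled points with standard error bars use all 4 libraries, open diamonds leave out N/D replicate 1, and the dashed line is the median of all genes tested, 0.26. For 10 genes, Plxnc1, Nrp1 and Sema5b among them, the filled point lies above 0 and the diamond below it, and for 3, Sema3f, Sema4a and Sema5a, the reverse holds.

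Only 3 of the 25 genes had lines that did not overlap. Both N/D/S libraries were above both N/D libraries for Sema6b and Sema6c, 8.0% of the family beside 8.69% of all genes tested. For Nrp2, 4.0% of the family, both lay below, beside 8.23% of all genes. These shares were near or below those of all genes. The log2 fold change was 1.13 for Sema6b (standard error 1.04), 0.56 for Sema6c (standard error 0.97) and −0.47 for Nrp2 (standard error 0.97). Limma's adjusted p was 1 for all 3. Relative to the median of all genes, they stood at 0.87, 0.30 and −0.73. With each library left out in turn, Sema6b ranged from 0.49 to 1.77, Sema6c from 0.28 to 0.84 and Nrp2 from −0.83 to −0.12, the smallest Nrp2 value being the one that leaves out N/D/S replicate 2. The fit lacking N/D replicate 1 gave 0.49, 0.28 and −0.42. Because these genes were picked for lines that do not overlap, leaving out a library could not turn their direction. The summed level of each marker list overlapped between the lines. Of single tested markers, the progenitor gene Hes5 lay higher in N/D/S, with 0 and 22.6 TPM in N/D against 61.8 and 69.2 TPM, as did the neuronal gene Tubb3, with 2048 and 1509 against 2774 and 2455 TPM. The neuronal gene Elavl3 lay lower, with 18.9 and 37.5 against 17.7 and 7.89 TPM, and the part of other cell types in these differences was not tested.

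The 2 genes with the largest fold change in each direction made 4, of which 3 were listed at 0 in 1 library. Plxnb1 had a log2 fold change of 1.68 (standard error 1.31) and Sema3c of 1.57 (standard error 1.21), and both were at 0 in N/D replicate 1. Without that library they fell to 0.02 and 0.23. In the other direction, Sema3a stood at −2.07 (standard error 1.67), with N/D/S replicate 2 at 0, and Plxna2 at −1.17 (standard error 1.35). Without N/D replicate 1, Sema3a was at −0.50, while Plxna2 was at −1.25. Both rested on N/D/S replicate 2, without which Sema3a was at −0.04 and Plxna2 turned to 0.62. Leaving out N/D/S replicate 1 instead gave −4.10 and −2.96. Limma's adjusted p was 1 for all 4. Since the pseudocount of 1 TPM enters against a value of 0, these fold changes are neither bounds nor direct ratios. With a pseudocount of 0.1 TPM they were 3.27 for Plxnb1, 3.14 for Sema3c and −3.63 for Sema3a, and quantile normalization gave 1.00 for Plxnb1 and 0.78 for Sema3c.

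Differences between the lines often turned around between replicate numbers. Files with the same number share one list of gene symbols, and the lines were therefore also compared within each number. N/D/S was higher in replicate 1 and lower in replicate 2 for 16 of the 25 genes, beside 56.6% of all genes tested, and for all 7 tested plexins. Nrp1 showed the widest such turn, with N/D/S minus N/D at 4.17 in replicate 1 and −1.85 in replicate 2 on the log2(TPM + 1) scale. Plxna2 turned from 0.70 to −3.04 and Sema6d from 3.57 to −2.39.

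Direction was the same in both replicate numbers for 8 genes. N/D/S was lower in both for Sema3a (−1.60 and −2.53), Sema3f (−0.50 and −0.54), Sema4f (−1.52 and −0.38), Sema5a (−0.48 and −0.77), Sema6a (−0.51 and −1.11) and Nrp2 (−0.17 and −0.78), in replicate order. Those 6 genes are 24.0% of the family, beside 17.9% of all genes tested. N/D/S was higher in both for Sema6b (1.30 and 0.96) and Sema6c (1.06 and 0.06), 8.0% beside 15.9%.

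For some genes the same-numbered library was the higher of the pair in both lines. The replicate 1 library was above the replicate 2 library in both lines for 8 of the 25 genes (32.0%, beside 20.1% of all genes tested), namely Sema3a, Sema3f, Sema4c, Sema4f, Sema5a, Sema6a, Plxna1 and Nrp2. The reverse held for Sema6b and Plxnb2 (8.0%, beside 19.0%). Several marker lists were ordered by number in both lines as well. The summed glutamatergic genes were higher in replicate 1 (17.3 against 3.17 TPM in N/D and 19.0 against 1.27 TPM in N/D/S), and so were the neuronal genes (3948 against 2747 TPM and 4450 against 3168 TPM). Lower in replicate 1 were the sums of the astrocyte and oligodendrocyte genes and of the progenitor genes. So were the fibroblast genes (0.0431 against 33.0 TPM and 7.71 against 21 TPM). The pluripotency genes were lower there as well (0.247 against 19.8 TPM and 0.472 against 25.0 TPM). Single genes did not all follow these sums. Of the progenitor genes, Fabp7 and Hes5 were lower in replicate 1 in both lines, but Pax6 and Hes1 were higher. Nes, Sox2 and Mki67 had no common order. Fabp7 alone had 134 and 906 TPM in N/D and 179 and 506 TPM in N/D/S. Map2, Elavl3 and Tbr1 had no common order either, and Slc17a7 was lower in replicate 1. The part of these lists in the order of the family's genes was not tested.

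**Figure D4:**
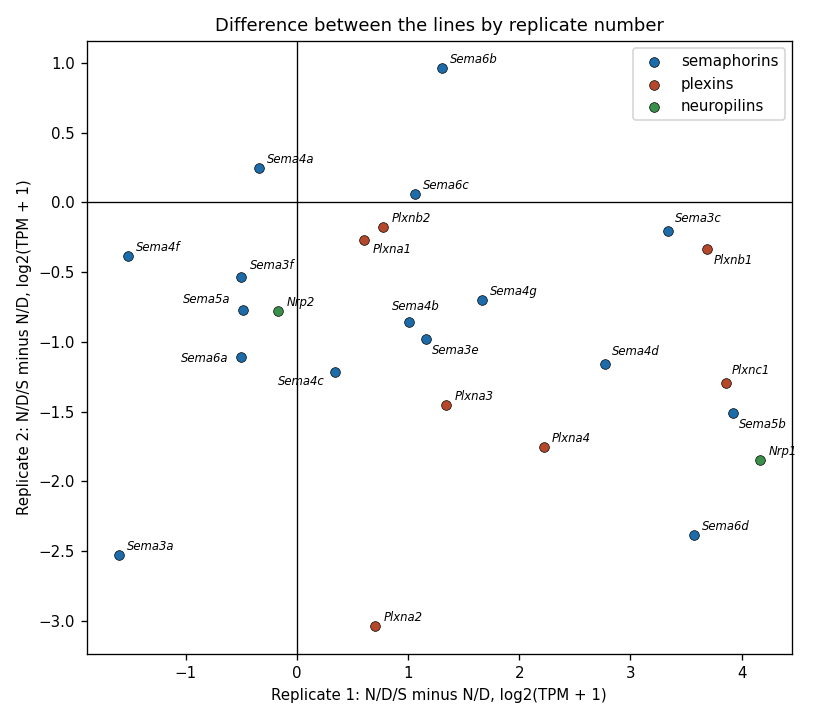
Difference between the lines for the 25 tested genes, N/D/S minus N/D on the log2(TPM + 1) scale, in replicate 1 (horizontal axis) and in replicate 2 (vertical axis), with 1 point a gene. All 7 plexins lie at the lower right, where the directions disagree, and Sema3a, Sema3f, Sema4f, Sema5a, Sema6a and Nrp2 lie at the lower left.

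Listing at 0 in N/D replicate 1 was no more common in the family than elsewhere. It held for 6 of the 25 tested genes (24.0%, beside 26.1% of all genes tested), namely Sema3c, Sema4d, Sema4g, Sema5b, Plxnb1 and Plxnc1. The median length of their longest annotated transcript was 5069 bases, against 6444 bases for the other 19, and their median level in N/D replicate 2 was 7.50 TPM, against 13.6 TPM.

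Position in the genome was looked at because the family is partly clustered. Sema3a, Sema3c, Sema3d and Sema3e lie on chromosome 5 of GRCm38 between positions 12383385 and 17730268, and they had different patterns, since Sema3c was at 0 in the library where Sema3a was highest. Sema3b and Sema3f lie 72271 bases apart on chromosome 9, with at most 0.682 TPM for Sema3b and at least 8.63 TPM for Sema3f. Nrp2, Plxna2 and Sema4c lie on chromosome 1 at chr1:62703285-62818695, chr1:194618218-194816869 and chr1:36548639-36558349. All 3 had log2 fold changes below 0, at −0.47, −1.17 and −0.44, as had 5008 of the 12975 genes tested. The median log2 fold change of the 736 tested genes of chromosome 1, minus that of the 12133 tested genes elsewhere, was −0.32, and −0.29 where every library had to reach 1 TPM. Under that stricter filter the difference was −0.46 to −0.18 over the 4 pairings across lines. Within a line, as replicate 2 minus replicate 1, it was 0.02 for N/D and −0.19 for N/D/S under the stricter filter, and −0.19 and −0.16 over all genes tested. Chromosome 1 was singled out after seeing the data, and no other chromosome was compared in this way. St18 itself lies on chromosome 1, and the part of the chromosome in the values of Nrp2, Plxna2 and Sema4c was not tested.

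Downstream partners were taken from a list of 37 genes that carry or modify the signal, from plexin-bound enzymes and GTPases to collapsin response mediators. Of these, 33 passed the filter, 0 were called in limma, and 0 had an unadjusted p under 0.05. Their median log2 fold change was 0.48, beside 0.26 for all genes tested, with 20 above 0 and 13 below. Of all genes tested, 7967 were above 0 and 5008 below. Without N/D replicate 1 the partners' median was −0.27, beside −0.29 for all genes. It was −0.08 with quantile normalization, beside −0.05, and −0.14 with at least 1 TPM in every library, beside −0.15. When N/D replicate 2 was left out, 5 of the 33 partners passed limma's adjusted threshold (15.2%, beside 18.3% of all genes tested). Both N/D/S libraries were above both N/D libraries for 3 of the 33 (9.09%) and below for 2 (6.06%), near the shares of all genes. Rras, a small GTPase that plexins inactivate, was listed at 0 and at 10.6 TPM in N/D and had 11.9 and 19.7 TPM in N/D/S. Ptprz1, a receptor phosphatase of immature cells, had 26.4 and 14.6 TPM in N/D and 12.1 and 3.10 TPM in N/D/S. Sh3bp1, a GTPase-activating protein that binds Plxnd1, and Gipc1, which binds the tail of Nrp1, were the other higher partners whose lines did not overlap. Sh3bp1 had 0 and 1.41 TPM in N/D and 2.03 and 1.57 TPM in N/D/S, and Gipc1 152 and 239 against 261 and 318 TPM.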

How the data were processed

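RNA from sorted neurons was poly-A selected and sequenced as paired-end reads, which the authors pseudoaligned to a mouse transcriptome with kallisto 0.44.0. The deposited values are TPM for each gene symbol, on GRCm38 per the labels, summing to between 997842 and 998609 in each library, and depth cannot be recovered from them. The release of the transcriptome and the way transcripts were combined are not given in the sources used here. Files were joined on symbol. In each file 26 entries that had been turned into dates were left out.

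The test used limma 3.58.1 under R 4.3.3 on log2(TPM + 1), for genes reaching 1 TPM in 2 or more libraries, 2 libraries against 2, with Benjamini-Hochberg adjustment over all genes and a threshold of 0.05. Sleuth, named by the authors, needs more than these values. The fit was also run on simulated data, and how many of the genes moved there it recovered is not reported here. Groups and replicate numbers came from the labels. Positions came from GENCODE M21 and figures from Python 3.11.15 with matplotlib 3.10.9.

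The 31 genes, the partner list and the marker lists were chosen with earlier results of these data known. All 31 genes are named, and fits are given for genes whose lines do not overlap and for the 2 with the largest fold change in each direction. Partners are named where lines do not overlap, 4 at most by size of fold change. Fits for single genes past the threshold in an alternative are given as well. Alternatives were pseudocounts of 0.5 and 0.1, other filters and scalings, a natural log offset of 0.5 after sleuth, a variance trend, the replicate number as a block and each library left out. The chromosome 1 values were added after seeing the data.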

Additional observations from a re-analysis of the deposited data

How the results depend on the processing

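The alternatives gave 192 values for 14 results, and 180 of these were counted as unchanged. For single genes, unchanged means the same direction and the same call. Counts that moved little, such as 3 genes in place of 2, were included. A median was included if it moved by less than the spread between libraries, a standard deviation of 0.82 for the family. The 180 therefore include fits in which the family's median turned below 0, down to −0.54. No gene passed the adjusted threshold under any alternative with all libraries except a variance trend, which called 6 genes and 0 of the family. Leaving out 1 library gave 0 to 2373 genes past it, 0 to 4 of the family and 0 to 5 partners, with the highest counts without N/D replicate 2. It gave 2 to 15 genes of the family with all N/D/S values above N/D and 1 to 12 with all below, by which library was left out. The 15 are 60.0% of the family beside 42.8% of all genes (without N/D/S replicate 2), and the 12 are 48.0% beside 31.1% (without N/D/S replicate 1). The 2 and the 1, from the opposite fits, are 8.0% beside 19.3% and 4.0% beside 13.6%. Plxna2 ranged from −2.96 to 0.62, turning without N/D/S replicate 2. The median log2 fold change of the family ranged from −0.54 to 0.71 with a library left out and was −0.40 with quantile normalization, where 6 genes changed direction and the median of all genes was −0.05. It was −0.05 with at least 1 TPM in every library, which left 13 genes and a median of −0.15 for all. The cause of these changes was not tested.

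Sema6b, Sema6c and Nrp2 kept their directions in every alternative. They were picked because their lines do not overlap, so of the alternatives only the scalings could have turned them. With the replicate block, the median log2 fold change was 0.17 and 0 genes were called. Deviations of same-numbered libraries had a correlation of 0.02 across genes, and no label ties a number to a shared culture or day, so the libraries were not treated as pairs, although files with the same number share one list of gene symbols. TPM values carry no depth, so the limit it sets on low genes was not assessed.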
